A study of Homo sapiens with 6 samples.

Results

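Cav1, Cav2 and Cavin1 encode the core of the caveolar coat. Scaled to library size, all 3 had higher values in cells given a GOLPH3 short hairpin RNA (shRNA) than in cells given a control shRNA. The 3 genes were taken as the rows of the deposited count table whose identifier (ID) before the version number matched ENSMUSG00000007655 for Cav1, ENSMUSG00000000058 for Cav2 and ENSMUSG00000004044 for Cavin1. All 3 were found among the 34866 IDs of the table, and all 3 passed the filter on low counts, which left 11400 IDs. After scaling, all 3 GOLPH3 shRNA values lay above all 3 control values in 22.1% of these IDs, the 3 genes among them. The 3 genes were chosen with results of this same comparison known, so their differences between the groups are given as a description. Where the calls of the test over all IDs are counted, nothing is read from them.

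The samples are labelled as MKN45, an established line of human gastric cancer cells, which the series' design text gives as negative for the gland mucin Muc6. One group of 3 samples received an adenovirus with an shRNA against Golph3, a Golgi protein that helps to hold glycosyltransferases in place, and the other group of 3 received an adenovirus with a control shRNA. Both groups therefore carried a virus and a hairpin, were grown in the same serum-containing medium and come from 1 cell line. The labels give neither the number of hairpins, the dose of virus nor the time after infection. They also do not say whether the numbered samples were separate cultures, so the spread between samples may be technical. Replicate below means the number in a sample's title, which could stand for a hairpin or for a repeat. The comparison asks how gene expression differs when Golph3 is targeted.

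The libraries held 4977645, 5496890 and 5676169 estimated counts in GOLPH3 shRNA replicates 1, 2 and 3, against 6287037, 7355140 and 6440385 in control shRNA replicates 1, 2 and 3. Pearson correlations of log2 CPM (counts per 1000000 of the scaled library size) across IDs were 0.971 to 0.980 within a group and 0.948 to 0.959 between groups. The table counts mouse Ensembl IDs and the submitters' processing notes name the mouse build mm10, while the labelled organism is human. The table does not settle whether reads of human cells were counted on mouse genes or the cells were of mouse origin. A level below is therefore a level of reads assigned to the mouse gene, and differences between the groups are given for the same gene; where genes are set side by side, it is for the number of reads behind them or for their fold changes, not for their abundance. The level of Golph3 itself, the markers of the labelled cell type and of other cell types, and the other genes of caveolae were not analysed here, since no table used here pairs mouse IDs with symbols. In bulk RNA, a change in the share of cells that express a gene and a change in its RNA per cell cannot be told apart.

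Caveolae are small flask-shaped pits of the plasma membrane. Caveolin-1 is a cholesterol-binding membrane protein that oligomerizes during its passage through the Golgi and forms the inner coat. Caveolin-2 joins it in mixed oligomers and in many cells depends on caveolin-1 to leave the Golgi. Cavin-1 (also called PTRF) is a cytosolic protein that is recruited to caveolins at the cell surface and is needed to shape the pit. Cells that have caveolin-1 without cavin-1 hold it outside caveolae. CAV1 and CAV2 are neighbours on 1 human chromosome, and CAVIN1 lies on another.

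The upstream sequences of the human genes of the same name are shown, from the RefSeq promoter table (build GRCh38.p14). Whether they bear on the caveolin values was not tested. Since the species of the cells is not settled, they may not be the sequences of the cells measured. Entries were found for 2 of the 3 genes, CAV1 and CAV2; CAVIN1 was not matched. Each sequence is the 250 bases before the first start listed, on the plus strand, at chr7:116524759-116525008 for CAV1 and at chr7:116499488-116499737 for CAV2. The capitals mark GC boxes, the motif GGGCGG or its reverse complement CCGCCC.
CAV1: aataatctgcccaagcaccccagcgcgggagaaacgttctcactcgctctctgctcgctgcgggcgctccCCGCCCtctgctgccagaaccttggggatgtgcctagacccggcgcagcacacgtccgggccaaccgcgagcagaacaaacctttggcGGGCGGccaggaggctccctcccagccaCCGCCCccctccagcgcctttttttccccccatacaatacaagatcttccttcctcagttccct
CAV2: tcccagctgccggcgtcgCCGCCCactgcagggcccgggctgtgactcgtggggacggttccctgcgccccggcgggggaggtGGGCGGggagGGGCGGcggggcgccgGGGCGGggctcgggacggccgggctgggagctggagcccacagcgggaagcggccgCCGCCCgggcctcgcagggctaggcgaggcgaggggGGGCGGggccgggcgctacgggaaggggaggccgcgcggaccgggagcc

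The CAV1 window held 3 GC boxes and the CAV2 window 6, counting both strands. A GC box was present in 42.6% of 35116 windows of 250 bases taken the same way before all starts of the table. That share is of presence, while the number of boxes per window was not counted over all windows. Windows of like base content were not compared. The bases G and C made up 63.6% of the CAV1 window and 83.2% of the CAV2 window, beside a median of 58% over all windows. Neither window held the TATA box letters TATAAA on either strand, which were present in 10.7% of all windows. The CCAAT box letters, CCAAT, were in neither and in 32.0% of all windows. The TEAD element letters, GGAATG, were in neither and in 11.9% of all windows. The letters ACGTG are a form of the core of the hypoxia response element, and other forms were not searched. They occurred at 1 place in the CAV1 window and at 0 places in the CAV2 window, and in 18.5% of all windows. These are letter matches in the human reference and not binding sites, and the table lists further starts for both genes.

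Cav1, the gene of the main coat protein, had a higher scaled level in every GOLPH3 shRNA library. Its deposited counts were 1021, 1182 and 1228 in GOLPH3 shRNA replicates 1, 2 and 3, against 888, 1190 and 951 in control shRNA replicates 1, 2 and 3. The counts of the groups overlapped before scaling: control replicate 2, the largest library, had more Cav1 reads than 2 of the GOLPH3 shRNA libraries. Scaled to library size with trimmed mean (TMM) factors, Cav1 had 207, 212 and 222 CPM with GOLPH3 shRNA and 138, 162 and 150 CPM with control shRNA. All 3 GOLPH3 shRNA libraries then lay above all 3 control libraries, and the lowest of them was 1.28 times the highest control. Cav1 averaged 214 ± 7.64 CPM with GOLPH3 shRNA and 150 ± 12.0 CPM with control shRNA (SD, n = 3 each). The fitted log2 fold change was 0.51 (SE 0.076), a 1.42-fold higher level.

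Cav2 had a smaller difference of the same direction. Its counts were 750, 857 and 918 in the GOLPH3 shRNA libraries, against 724, 855 and 806 in the control libraries, again with overlap before scaling. In CPM it had 152, 153 and 166 with GOLPH3 shRNA and 113, 117 and 127 with control shRNA. The scaled values of the groups did not overlap, with the lowest GOLPH3 shRNA library at 1.20 times the highest control library. The means were 157 ± 7.62 CPM with GOLPH3 shRNA and 119 ± 7.40 CPM with control shRNA (SD, n = 3 each), and the log2 fold change was 0.40 (SE 0.078), or 1.32-fold higher.

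Cavin1, the coat protein gene, had the largest fold change of the 3 and the fewest reads. Its counts were 92, 109 and 116 with GOLPH3 shRNA and 60, 76 and 50 with control shRNA. These counts were already separate before scaling, although each GOLPH3 shRNA library was smaller than each control library. In CPM, Cavin1 had 18.7, 19.5 and 21.0 with GOLPH3 shRNA and 9.34, 10.4 and 7.88 with control shRNA. The lowest GOLPH3 shRNA value was 1.80 times the highest control value. Cavin1 averaged 19.7 ± 1.17 CPM with GOLPH3 shRNA and 9.19 ± 1.25 CPM with control shRNA (SD, n = 3 each). The log2 fold change was 1.10 (SE 0.18), or 2.14-fold higher.

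**Figure D1:**
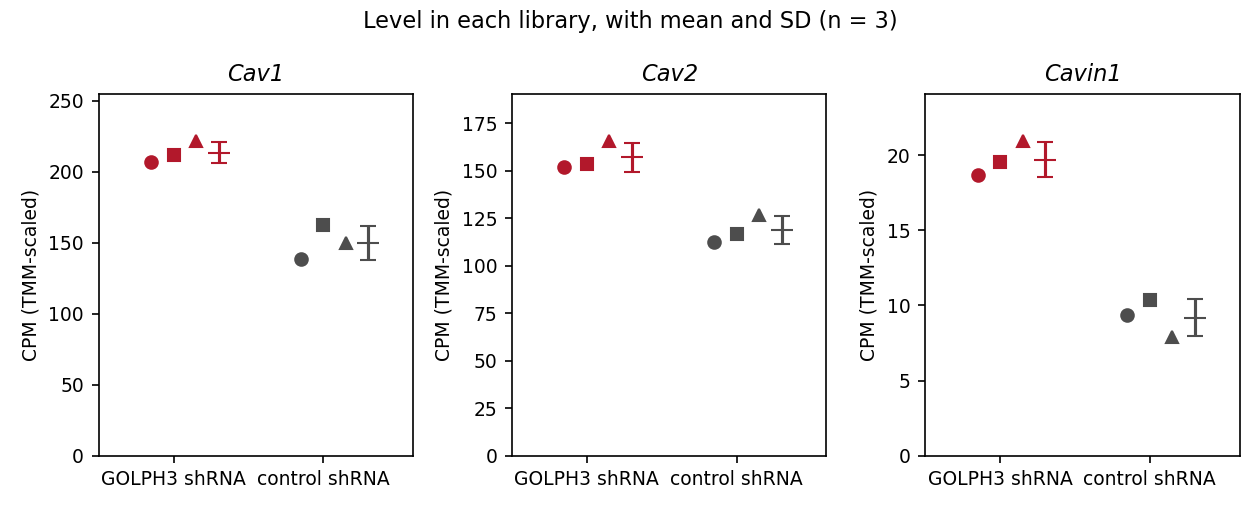
Level of Cav1, Cav2 and Cavin1 in TMM-scaled CPM (vertical axes, each from 0) in the 3 GOLPH3 shRNA libraries (red, left) and the 3 control shRNA libraries (grey, right). Circles, squares and triangles are replicates 1, 2 and 3, and the bar beside them is the mean ± SD. The lowest GOLPH3 shRNA point is 1.28 times the highest control point for Cav1, 1.20 times for Cav2 and 1.80 times for Cavin1. In 22.1% of all tested IDs the scaled GOLPH3 shRNA values likewise lay above all control values.

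Scaling to library size raised the ratio of GOLPH3 shRNA over control by a similar factor in each gene. The fitted folds after scaling were 1.42 for Cav1, 1.32 for Cav2 and 2.14 for Cavin1. Summed over the libraries without scaling, GOLPH3 shRNA over control counts gave a ratio of 1.13 for Cav1 (3431 against 3029), 1.06 for Cav2 (2525 against 2385) and 1.70 for Cavin1 (317 against 186). When each library was thinned at random to the smallest total, Cav1 kept 1021 to 1077 counts with GOLPH3 shRNA and 705 to 810 with control shRNA. Thinned Cav2 counts were 750 to 800 with GOLPH3 shRNA and 580 to 623 with control shRNA. Thinned Cavin1 counts were 92 to 103 with GOLPH3 shRNA and 36 to 55 with control shRNA. These ranges describe libraries matched on their total only, without TMM factors.

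Counting precision differed between the genes as their depth did. The coefficient of variation between GOLPH3 shRNA libraries was 3.58% for Cav1, 4.85% for Cav2 and 5.92% for Cavin1. Between control libraries it was 8.00%, 6.23% and 13.6% in the same order. Counting error alone, at the mean count of a group, gives 2.96% and 3.15% for Cav1, 3.45% and 3.55% for Cav2, and 9.73% and 12.7% for Cavin1, with GOLPH3 shRNA and with control shRNA in turn. The spread of Cavin1 was therefore of the size that counting gives, or below it. In counts per 1000000 of the library total, without TMM factors, the exact 95% Poisson intervals of Cavin1 ran from 14.9 to 22.7 in GOLPH3 shRNA replicate 1, the lowest of its group, and from 8.14 to 12.9 in control replicate 2, the highest of its group. These intervals describe the precision of the counts and cover counting error only. All 18 values of the 3 genes were exactly whole numbers in the table, with no tolerance, and 54.9% of the tested IDs were likewise exactly whole in every library.

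Cavin1 differed more than either caveolin, and the ratio of genes within a library restates this from the same counts without any scaling. The log2 ratio of Cavin1 to Cav1 counts was -3.47, -3.44 and -3.40 with GOLPH3 shRNA, against -3.89, -3.97 and -4.25 with control shRNA. Its mean was 0.60 higher with GOLPH3 shRNA. The log2 ratio of Cavin1 to Cav2 counts was -3.03, -2.98 and -2.98 with GOLPH3 shRNA, against -3.59, -3.49 and -4.01 with control shRNA, a mean difference of 0.70. Neither of these ratios overlapped between the groups. How often the ratios of other gene pairs do so was not examined, so nothing is read from this. Control replicate 3, with the fewest Cavin1 reads, had the lowest value of both. The ratio of the caveolins to each other did overlap. The log2 ratio of Cav1 to Cav2 counts was 0.45, 0.46 and 0.42 with GOLPH3 shRNA and 0.29, 0.48 and 0.24 with control shRNA. Its mean was 0.44 ± 0.022 with GOLPH3 shRNA and 0.34 ± 0.12 with control shRNA (SD, n = 3 each), so that the difference of 0.11 was below the spread of the control libraries. Gene lengths were not used, so only the differences of these ratios between groups, and not their levels, can be read.

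**Figure D2:**
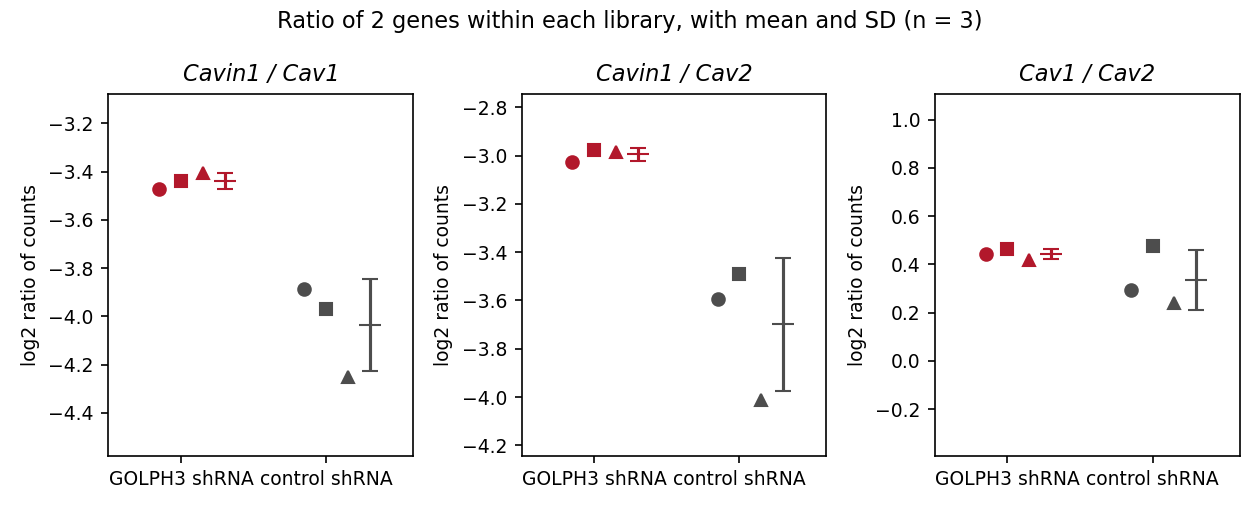
Log2 ratio of the deposited counts of 2 genes within each library (vertical axes, each spanning the same range of log2 units) for GOLPH3 shRNA (red, left) and control shRNA (grey, right), with replicates 1, 2 and 3 as circles, squares and triangles and mean ± SD beside them. Both ratios with Cavin1 are separate between the groups, with mean differences of 0.60 and 0.70, and the Cav1 to Cav2 ratio overlaps. Other gene pairs were not examined.

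Among all tested IDs, the 3 genes were in the upper part of the changes without being at the extreme. All 3 were called higher by edgeR's quasi-likelihood test with Benjamini-Hochberg adjustment over all IDs (adjusted p below 0.05), a call made for 16.1% of the 11400 IDs. All 3 had GOLPH3 shRNA values wholly above the control values, as did 22.1% of all IDs. Since the genes were chosen on this comparison, nothing is read from these counts. Their median log2 fold change was 0.51, beside 0.0019 over all tested IDs. A higher log2 fold change than that of Cav1 was found in 13.2% of all IDs, than that of Cav2 in 18.3% and than that of Cavin1 in 2.34%. Counting changes in either direction, a larger one was found in 28.4% of all IDs for Cav1, 38.4% for Cav2 and 5.08% for Cavin1. Set only against the 1840 IDs called higher, whose median fold was 1.43, Cav1 at 1.42-fold lay near the middle, Cav2 below it with 68.3% of them higher, and Cavin1 above it with 11.1% higher.

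**Figure D3:**
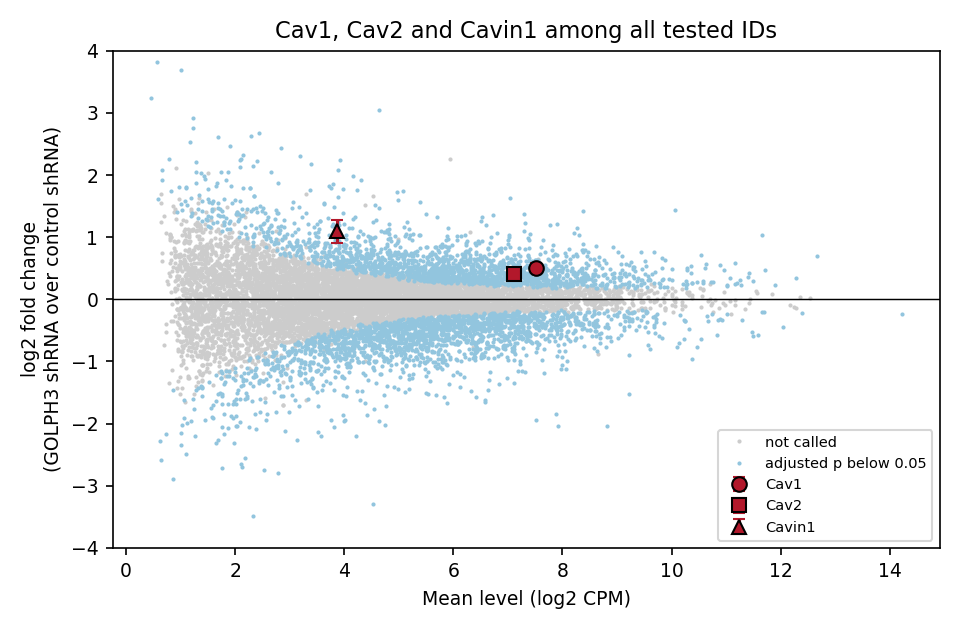
Log2 fold change of GOLPH3 shRNA over control shRNA (vertical axis) against mean log2 CPM (horizontal axis) for the 11400 tested IDs, with IDs at an adjusted p below 0.05 in blue, the others in grey, and Cav1 (circle), Cav2 (square) and Cavin1 (triangle) in red with SE bars. Cav1 and Cav2 sit at high read depth with changes of 0.51 and 0.40, and Cavin1 sits at lower depth with a change of 1.10; 3 IDs beyond 4 log2 units are not drawn.

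The 2 caveolins also had a smaller spread within groups than most IDs, but they had more reads than most, and IDs of like read depth were not compared. The read depth behind each gene, as mean log2 CPM with no correction for length, was greater than that of 90.0% of the tested IDs for Cav1, 86.4% for Cav2 and 36.6% for Cavin1. The spread of log2 CPM within groups was 0.089 for Cav1, 0.079 for Cav2 and 0.15 for Cavin1, beside a median of 0.18 over all IDs. A smaller spread than that of Cav1 was found in 16.6% of IDs, than that of Cav2 in 12.7% and than that of Cavin1 in 40.7%.

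Over the 6 libraries, the profiles of the 2 caveolins were much closer to each other than to that of Cavin1. Likeness was measured as the Euclidean distance between log2 CPM values centred on each gene's mean, which takes in the size of a change as well as its shape. The distance was 0.22 between Cav1 and Cav2, 0.75 between Cav1 and Cavin1 and 0.91 between Cav2 and Cavin1. Closeness to Cav1 was not particular to Cav2, since 190 other IDs were nearer to Cav1. The ID nearest to Cav1 was ENSMUSG00000025393.12, at a distance of 0.092 (Pearson r = 0.991 over 6 libraries), with 794 to 834 CPM in GOLPH3 shRNA libraries and 561 to 610 CPM in control libraries. The ID nearest to Cav2 was ENSMUSG00000026202.13, at a distance of 0.042 (Pearson r = 0.998 over 6 libraries), with 163 to 177 CPM in GOLPH3 shRNA libraries and 120 to 136 CPM in control libraries. Within a distance of 0.3 lay 4.54% of the other tested IDs for Cav1, 7.16% for Cav2 and 0.123%, or 14 IDs, for Cavin1. The cutoff was the same for all 3 genes, while the spread within groups was 0.15 for Cavin1 against 0.089 and 0.079 for Cav1 and Cav2. A wider spread by itself leaves fewer IDs within a fixed distance, so these shares do not show that the Cavin1 profile is rarer. The group difference makes up most of each profile, so these correlations describe the same contrast and carry no p-value.

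The 3 fold changes kept their direction under the settings tried. Over 16 other settings, the log2 fold change ran from 0.45 to 0.56 for Cav1, from 0.36 to 0.45 for Cav2 and from 0.99 to 1.19 for Cavin1. The highest Cav1 value and the highest Cavin1 value both came without control replicate 2, and the lowest Cavin1 value came without control replicate 3. The order of the 3 genes, with Cavin1 first, Cav1 next and Cav2 last, was the same in each of the 16 settings, and the SE bars of Cav1 and Cav2 overlapped in all of them.

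**Figure D4:**
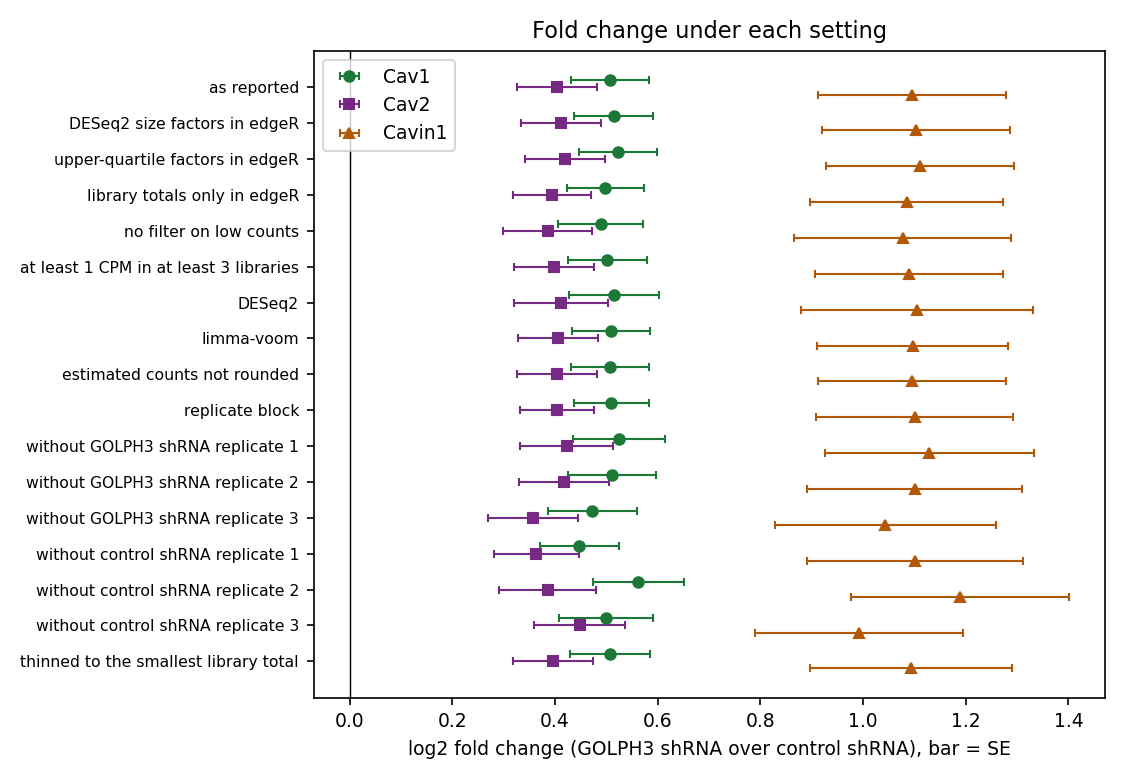
Log2 fold change of GOLPH3 shRNA over control shRNA (horizontal axis) with its SE (bars) for Cav1 (green circles), Cav2 (purple squares) and Cavin1 (orange triangles) under the reported setting (top) and the 16 alternatives. All points lie above 0, and Cavin1 lies between 0.99 and 1.19 throughout the alternatives.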

How the data were processed

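RNA sequencing was deposited for 6 samples, made into libraries with a stranded mRNA kit, per the labels. The deposited values are unscaled estimated counts for mouse Ensembl IDs, in a single table; the submitters' processing notes name mm10. Quantifier, annotation release and strand setting: not given in the sources used here. Members and lists were chosen with earlier results of these data known. Estimated counts were rounded. IDs were kept by filterByExpr (11400 of 34866), and 16815 rounded to 0 in every library. Kept IDs were fitted with edgeR 4.0.16 in R 4.3.3 (TMM factors, quasi-likelihood F test, Benjamini-Hochberg adjustment). The fit was also run on counts simulated from its own estimates, with an outcome not reported here, and nothing is read from that run. The standard error (SE) was the absolute log2 fold change over the root of F. Log2 CPM used a prior count of 2. Alternatives used DESeq2 1.42.0, limma-voom (limma 3.58.1), other scalings and filters, unrounded counts, a replicate block, each library left out and thinned libraries. The named genes were the 3 members and the nearest ID to a member, limited to 2 that were higher, which left out the one nearest to Cavin1. The planned pathway list and cell type markers could not be run without symbols. Library totals were 4977645 to 7355140 estimated counts; intervals cover counting error only.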

Additional observations from a re-analysis of the deposited data

How the results depend on the processing

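The log2 fold changes of Cav1, Cav2 and Cavin1 kept their direction and moved by less than their spread within groups in all 16 alternatives; the genes were chosen on this comparison, so this describes the settings and is no independent support. Leaving out each library in turn gave log2 fold changes of 0.45 to 0.56 for Cav1, 0.36 to 0.45 for Cav2 and 0.99 to 1.19 for Cavin1. The other 10 settings gave 0.49 to 0.52, 0.39 to 0.42 and 1.08 to 1.11. Called IDs numbered 1736 to 1952 higher and 1830 to 2222 lower in those 10, and 1425 to 1665 higher and 1644 to 1929 lower with a library left out. The median log2 fold change over all IDs stayed between -0.0074 and 0.016 across the scalings. With a replicate block in the fit, the log2 fold changes were 0.51, 0.40 and 1.10, with 1842 IDs called higher and 2045 lower. The deviations of same-numbered samples correlated at 0.032, 0.090 and 0.044, and those of differently numbered samples at -0.0855 to 0.0373. For each GOLPH3 shRNA replicate the same-numbered control had the highest value. All values were under 0.1, and the main fit did not take the numbers as pairs, so pairing is not settled. Cavin1 had 50 to 116 counts per library, which limits the precision of its values.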
